A study of Saccharomyces cerevisiae with 3 samples.

Results

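The genes described here encode the enzymes of the tricarboxylic acid (TCA) cycle, the respiratory complexes, ATP synthase and the NADH dehydrogenases of Saccharomyces cerevisiae mitochondria, together with HAP4, a regulator of many of them. They were chosen by symbol as 49 genes, and all 49 were found among the 5539 genes with spots on the arrays, each with 2 spots. Total RNA of a strain labelled YAP1 mutant, and described in the title as carrying a yap1 deletion, was hybridised directly against RNA of the wild type on 3 two-colour arrays. Both strains had been exposed to 1.0 mM arsenite, or As(III), for 1 h, so every comparison is between strains under stress and none is between stressed and unstressed cells. Mutant RNA was labelled with Cy5 and wild-type RNA with Cy3 on all 3 arrays, and an effect of the dye cannot be told apart from one of the strain. Whether the 3 replicates came from different cultures is not said in the labels, so the spread behind each p-value, taken over these arrays, may be technical.

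In yeast the TCA cycle oxidises acetyl groups in the mitochondrial matrix and passes the electrons to NAD and ubiquinone. NADH dehydrogenases and succinate dehydrogenase feed ubiquinone, complex III passes the electrons on to cytochrome c, and complex IV hands them to oxygen; ATP synthase uses the resulting proton gradient. On glucose most of these genes are repressed, and on non-fermentable carbon the Hap2/3/4/5 complex, whose limiting subunit is Hap4, activates many of them. Yap1 is a transcription factor of the bZIP family that responds to oxidants and is best known for activating thioredoxin, glutathione and oxidoreductase genes.

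All values below are log2 ratios of mutant over wild type, so that -1 means a signal 2-fold lower in the mutant. This direction is likely rather than stated: it rests on the order of strains in the sample titles, the dye assignment and the sign of the YAP1 ratio. The deposited ratios fell with spot brightness, and this dependence on the recovered signal was therefore removed from each array with a loess fit. A gene was called changed at an adjusted p under 0.05 with limma over all 5539 genes (Benjamini-Hochberg, two-sided), and errors after ± are the standard errors of that fit over 3 arrays. YAP1 itself, the gene named in the mutant, had -0.32, -1.21 and -1.05 on replicates 1, 2 and 3, with a mean of -0.86 ± 0.17 (limma, adjusted p = 0.00593). The sources do not say whether its spots lie inside the deleted stretch.

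The arrays carried a further pattern that touches these genes. In the order of the spots the ratios shifted in steps, as between print blocks of one size, and of the 5 block sizes compared the one giving 48 blocks took up the most variance (19.9%, 17.3% and 10.2% on the 3 arrays). After loess the medians of these blocks ran from -0.46 to 0.72 on replicate 1, from -0.29 to 0.27 on replicate 2 and from -0.27 to 0.24 on replicate 3. The 49 genes lay in 33 blocks, and 32 of them lay in blocks whose median was below 0 on replicate 1. Results that this step moved are therefore given also with the block medians subtracted, which was decided on once the pattern had been seen. The correlation of replicates 1 and 2 across all genes, which are not independent replicates, was 0.538 before this step and 0.622 after it. For replicates 1 and 3 it was 0.532 and 0.664, and for replicates 2 and 3 it was 0.680 and 0.672.

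Most TCA cycle and respiratory genes did not pass the test. ATP1, the alpha subunit of ATP synthase, and CYC1, the main isoform of cytochrome c, were called lower, and 0 of the 49 were called higher. Of all genes tested 3.74% were called lower and 0.939% higher, so that 2 of 49 lower genes is close to the share among all genes. At an unadjusted p under 0.05, limma's fit had 8 of the 49 lower (16.3%, against 12% of all genes) and 2 higher (4.08%, against 7.55%). The 49 means had a median of -0.10, against -0.02 for all genes, but one of 0.036 when loess was run inside each print block. On all 3 arrays 21 of the 49 were below 0 and 9 above it, which is 42.9% and 18.4%, against 23.9% and 20.6% of all genes. With block medians subtracted, ATP1 alone of the 49 was called, where 1.95% of all genes were called lower and 0.379% higher. The median of the 49 was then -0.06, with 19 genes lower and 9 higher on all 3 arrays. These were 38.8% and 18.4%, against 25.7% and 23.1% of all genes. With loess inside each block LSC2, SDH1, NDI1, QCR2, QCR7, RIP1, CYC1, COX5A, COX5B, ATP1 and ATP17 were below 0 on all arrays. In that setting SDH2, NDE1, QCR10, COX4, COX7, COX13, ATP15, ATP16 and HAP4 were above 0 on all arrays. The shares of all genes were not computed for it.

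**Figure D1:**
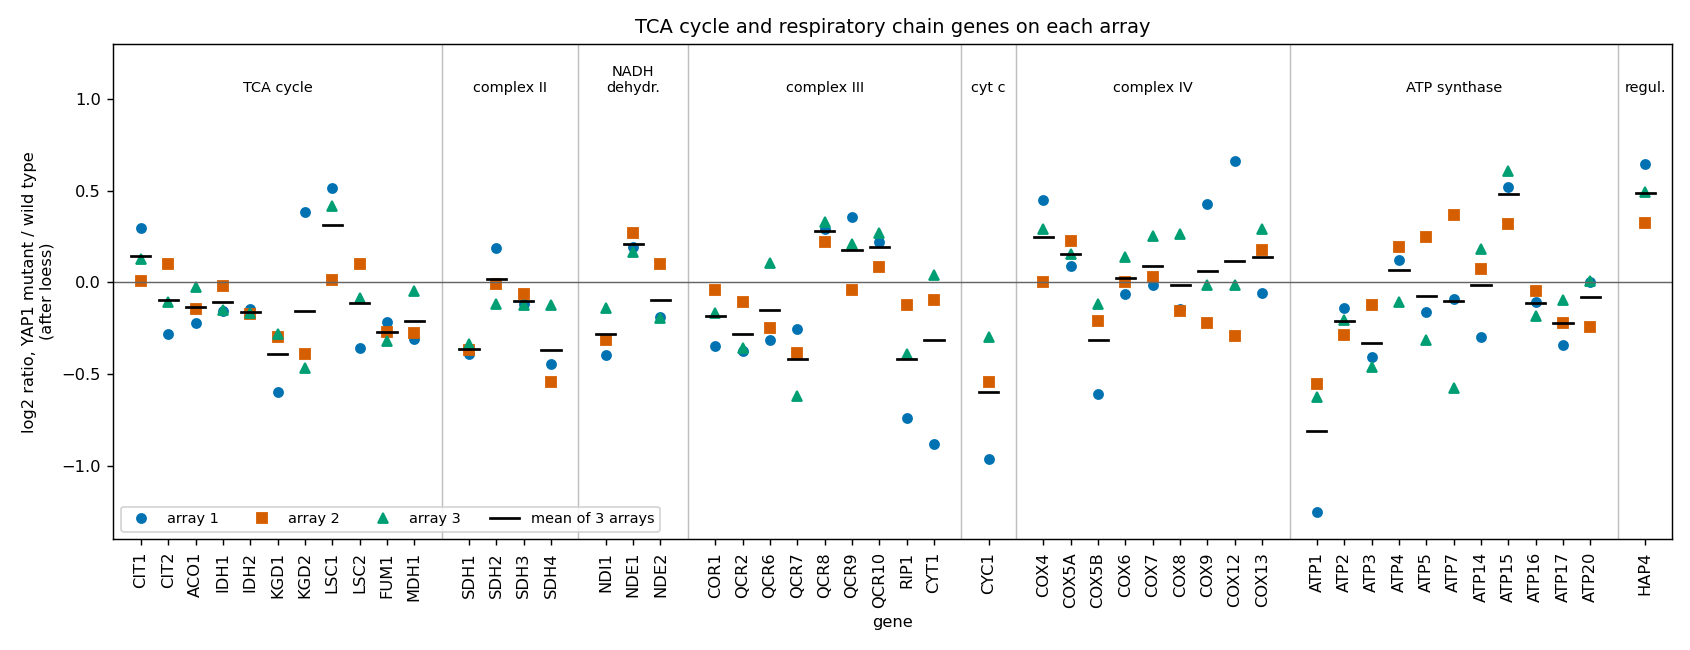
The log2 ratio of YAP1 mutant over wild type after loess is plotted for each of the 49 genes, with 1 point per array and a bar for the mean of 3 arrays. ATP1 and CYC1 have all 3 points at -0.30 or lower, ATP15 and HAP4 have all 3 at 0.32 or higher, and the other bars lie between -0.42 and 0.31.

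After loess the 95% confidence interval of limma's mean lay inside a 2-fold change in either direction for 48 of the 49 genes, the exception being ATP1, and inside a 1.5-fold change for 33. With block medians 49 and 40 did. These intervals are not adjusted for the number of genes. A gene that did not pass may thus differ by less than these limits.

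ATP synthase has a catalytic F1 sector and a proton-conducting membrane sector joined by stalks. ATP1 (YBL099W) had ratios of -1.25, -0.55 and -0.62 on replicates 1, 2 and 3, and its duplicate spots differed by at most 0.11 on any array. It was lower on all 3 arrays, with replicate 1 the lowest, and its mean was -0.81 ± 0.17 (limma, adjusted p = 0.00632), or a signal 1.75-fold lower in the mutant. Its spots stood in the print block with the lowest median of all 48 on replicate 1 (-0.46). With block medians subtracted the ratios were -0.79, -0.47 and -0.66, closer to each other, and the mean of -0.64 still passed (limma, adjusted p = 0.0351). It did not pass without replicate 1 after loess (-0.59, adjusted p = 0.0637 by limma) or with loess run inside each block (-0.69, adjusted p = 0.134), a setting that called 0 of the 49, beside 1.25% of all genes lower and 0.108% higher. Nor did it pass in limma with a robust variance trend (adjusted p = 0.0979), with signal recovered from each array alone (adjusted p = 0.0959), or with block medians and replicate 2 or 3 left out (adjusted p = 0.157 and 0.174).

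None of the other 10 subunit genes passed after loess. The beta subunit gene ATP2, which forms the catalytic hexamer with the alpha subunit, had -0.14, -0.28 and -0.20, and its duplicate spots disagreed by 0.62 on replicate 3. The gamma subunit gene ATP3, the central shaft, had -0.40, -0.12 and -0.46. The delta subunit gene ATP16 had -0.11, -0.05 and -0.18. All 3 genes were below 0 on every array after loess. With block medians ATP2 (-0.15, -0.40 and -0.38) and ATP3 (-0.06, -0.05 and -0.46) stayed below 0. ATP16 then had 0.19, 0.04 and -0.04, with a mean of 0.06. The epsilon subunit gene ATP15 was above 0 on all 3 arrays, with 0.52, 0.32 and 0.61 and a mean of 0.48 ± 0.15 that missed the threshold (limma, adjusted p = 0.0772). In its print block, whose median on replicate 1 was 0.38, the first 2 values became 0.14 each when the block median was subtracted, and the mean was 0.32.

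The stalk and membrane subunit genes ATP4, ATP5, ATP7, ATP14, ATP17 and ATP20 had means between -0.22 (ATP17) and 0.07 (ATP4), and 0 of the 6 passed. ATP17 had -0.34, -0.22 and -0.09, and its spots were among the dimmest of the list, at percentile 6.32 of the signal of all genes. ATP4, a subunit of the peripheral stalk, had 0.12, 0.19 and -0.11. ATP7, another stalk subunit, disagreed in sign between replicates 2 (0.37) and 3 (-0.57). ATP5, which encodes the oligomycin sensitivity conferring protein, moved most with the block step, from a mean of -0.07 to -0.43; its block had a median of 0.62 on replicate 1. ATP14 shared its print block with ATP1 and CYC1. After loess ATP14 had -0.30, 0.07 and 0.18, and with block medians 0.16, 0.15 and 0.14. On every array ATP1 was the lowest of the 11 subunits: it stood 1.13, 0.57 and 0.48 below the median of the other 10 on replicates 1, 2 and 3, and 0.85, 0.46 and 0.60 below it with block medians. With median centring of the arrays, 1 of the 10 others was below it on replicate 3.

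**Figure D2:**
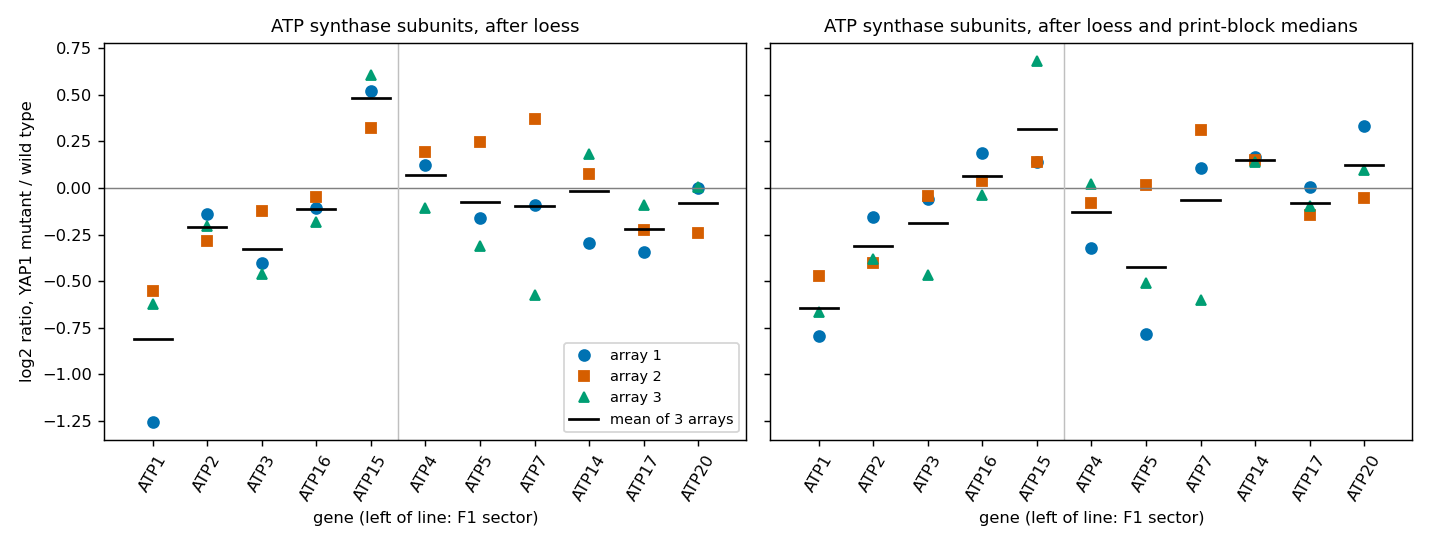
Log2 ratios of the 11 ATP synthase subunit genes are shown for each array (points) with the mean of 3 arrays (bars), after loess on the left and with print-block medians also subtracted on the right. ATP1 lies lowest on every array in both panels; on the right its values are -0.79, -0.47 and -0.66, and ATP5 comes next to it on replicate 1 at -0.78.

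Cytochrome c is the mobile carrier between complexes III and IV. Its main gene CYC1 (YJR048W), induced by heme and oxygen, had -0.96, -0.54 and -0.30. It was lower on all 3 arrays, and the mean of -0.60 ± 0.16 passed the threshold (limma, adjusted p = 0.0387), or 1.52-fold lower. The duplicate spots of CYC1 differed by 0.65 on replicate 3. CYC1 lay in the same print block as ATP1, where 9 of 119 genes (7.56%) were called lower after loess and 5 with block medians. With block medians its ratios were -0.50, -0.46 and -0.34, and the mean of -0.43 no longer passed (limma, adjusted p = 0.0900). It also did not pass without replicate 1 (-0.42, adjusted p = 0.161), without replicate 2 (-0.63, adjusted p = 0.130) or, by the same limma fit, with the signal recovered from each array alone (-0.58, adjusted p = 0.132). CYC7, the isoform gene used more under hypoxia, had -0.02, -0.03 and 0.08. The difference between the isoforms, CYC1 minus CYC7, was -0.94, -0.51 and -0.37, and with block medians -0.27, -0.60 and -0.63.

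In the genome the neighbours of CYC1 in the RefSeq gene order are ANB1 and UTR1. ANB1 had a mean of 0.02 and UTR1 one of 0.08. BNA4, next to ATP1, had -0.09, and YBL100W-A, on the other side of ATP1, had no value here.

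Complex III, the cytochrome bc1 complex, had 0 of 9 genes called. Its 2 large core subunits COR1 (-0.35, -0.04 and -0.17) and QCR2 (-0.38, -0.11 and -0.36) were below 0 on all 3 arrays. RIP1, the Rieske iron-sulfur protein that takes electrons from ubiquinol, had -0.74, -0.12 and -0.39, with a mean of -0.42 ± 0.16 that missed the threshold (limma, adjusted p = 0.154). CYT1, cytochrome c1, rested on 1 array, with -0.88 on replicate 1 against -0.09 and 0.04 on the others. The smaller subunits split. QCR7 had the lowest mean of the complex, with -0.25, -0.38 and -0.62 (mean -0.42), and QCR6 had -0.32, -0.25 and 0.11. QCR8 was above 0 on all 3 arrays, with 0.29, 0.22 and 0.33, as was QCR10 (0.22, 0.09 and 0.27), and QCR9 had 0.35, -0.04 and 0.21. With block medians QCR7 (-0.39), RIP1 (-0.36) and CYT1 (-0.34) were the lowest of the complex and QCR8 (0.21) the highest, and none passed.

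Complex IV, cytochrome c oxidase, is represented by 9 nuclear genes, which had means from -0.31 to 0.25 with a median of 0.09, and 0 passed. COX4 was highest (0.45, 0.00 and 0.29) and COX5B lowest (-0.61, -0.21 and -0.12). COX5A and COX5B encode alternative forms of the same subunit, used with and without plentiful oxygen. COX5A had 0.09, 0.23 and 0.16, so that COX5A minus COX5B was positive on all 3 arrays (0.70, 0.44 and 0.27). With block medians that difference shrank to 0.10, 0.15 and 0.10; COX5A lay in a block with a replicate 1 median of 0.25 and COX5B in one with -0.35. COX12 and COX9 spread most, from 0.66 on replicate 1 to -0.29 on replicate 2 for COX12 and from 0.43 to -0.22 for COX9. The means of COX6, COX7, COX8 and COX13 lay between -0.01 and 0.14.

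**Figure D3:**
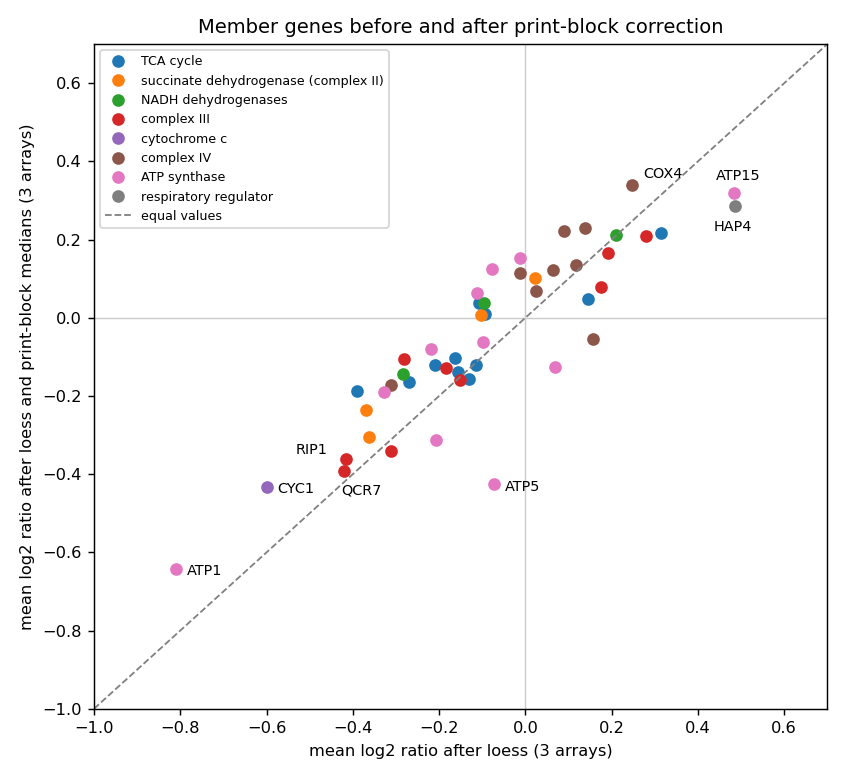
Mean log2 ratios over 3 arrays after loess (horizontal axis) are set against those with print-block medians also subtracted (vertical axis) for the 49 genes, coloured by complex, with a dashed line of equal values. ATP1 (-0.81 and -0.64) and CYC1 (-0.60 and -0.43) lie lowest after loess, ATP15 and HAP4 move towards 0, and ATP5 moves away from it.

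Among the TCA cycle genes 0 of 11 passed. KGD1, the first component of 2-oxoglutarate dehydrogenase, had the lowest mean (-0.60, -0.30 and -0.28; mean -0.39 ± 0.15, limma, adjusted p = 0.159). Its partner KGD2 had 0.39 on replicate 1 but -0.39 and -0.46 on replicates 2 and 3; its block had a median of 0.45 on replicate 1, and with block medians its values were -0.06, -0.10 and -0.26. The fumarase gene FUM1 (-0.21, -0.27 and -0.32) and the isocitrate dehydrogenase gene IDH2 (-0.15, -0.17 and -0.17) were below 0 on all arrays by similar amounts after loess. With block medians FUM1 had -0.18, -0.14 and -0.17, but IDH2 had -0.35, 0.001 and 0.04. With loess inside each block FUM1 had 0.24, -0.13 and -0.008, and IDH2 had 0.08, -0.004 and 0.06. MDH1, mitochondrial malate dehydrogenase, had -0.31, -0.27 and -0.05. ACO1, the iron-sulfur enzyme aconitase, had -0.22, -0.15 and -0.03, and IDH1 -0.16, -0.02 and -0.15. Of the 2 subunit genes of succinyl-CoA ligase, LSC1 was highest of the cycle (0.51, 0.01 and 0.41), and LSC2 had -0.36, 0.10 and -0.09. With block medians subtracted the means of the 11 ran from -0.19 (KGD1) to 0.22 (LSC1). With loess inside each block they ran from -0.13 (LSC2) to 0.20 (LSC1), and KGD1 had 0.06.

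Citrate synthase has a mitochondrial form, CIT1, and a peroxisomal one, CIT2, which is a marker of the retrograde response to mitochondrial dysfunction. CIT1 had 0.30, 0.01 and 0.13, and CIT2 had -0.28, 0.10 and -0.10. CIT1 minus CIT2 changed sign between arrays (0.58, -0.09 and 0.23).

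Succinate dehydrogenase, complex II, links the cycle to the chain. SDH1, its flavoprotein, had nearly equal ratios on the 3 arrays (-0.39, -0.37 and -0.34; mean -0.36 ± 0.15, limma, adjusted p = 0.179). With block medians these became -0.60, -0.19 and -0.12, which were less even. The membrane anchor gene SDH4 had -0.44, -0.54 and -0.12, and SDH3 -0.12, -0.06 and -0.12. SDH2, the iron-sulfur subunit, had 0.19, -0.01 and -0.11, and its spots lay at percentile 0.650 of the signal of all genes. SHH3 and SHH4, paralogues of SDH3 and SDH4, had means of 0.17 and 0.13.

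Yeast lacks a proton-pumping complex I and uses single-protein NADH dehydrogenases. The internal enzyme gene NDI1 was below 0 on all 3 arrays (-0.39, -0.32 and -0.14) and the external enzyme gene NDE1 above it (0.19, 0.27 and 0.17). NDE2, the other external enzyme gene, had -0.19, 0.10 and -0.20. NDE1 kept its sign with block medians (0.32, 0.18 and 0.13), and NDI1 had -0.04, -0.29 and -0.10.

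HAP4 had the highest mean of the 49 genes, with ATP15 next to it. Its ratios were 0.64, 0.32 and 0.49, above 0 on all 3 arrays, with a mean of 0.49 ± 0.15 that missed the threshold (limma, adjusted p = 0.0764). With block medians they were 0.46, 0.15 and 0.25, and the mean of 0.29 did not pass (limma, adjusted p = 0.239). HAP4 passed as higher with quantile normalization after loess (mean 0.51) and with median centring (mean 0.59), which leaves the dependence on brightness in place. Its spots were dim, at percentile 23.9 of the signal of all genes. With loess inside each block HAP4 had a mean of 0.24 and did not pass (limma, adjusted p = 0.290). The genes of the DNA-binding subunits of the same complex, HAP2, HAP3 and HAP5, had means of 0.04, -0.04 and 0.03 and did not pass.

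The scale changed how many of these genes were called, and many of their spots were bright. Of the 49, 19 lay in the brightest 25% of genes and 6 in the dimmest 25%. With each array centred on its median in place of loess, 16 of the 49 were called lower and 1 higher, against 17.8% and 4.28% of all genes. Of those 16, 11 lay in the brightest 25%, where median centring called 52.5% of all genes lower and 57.9% of the members. KGD1 (-0.89), SDH1 (-0.82), ATP2 (-0.64), MDH1 (-0.62), NDI1 (-0.61), QCR6 (-0.58), COR1 (-0.56), KGD2 (-0.50), ATP3 (-0.50), FUM1 (-0.47) and IDH2 (-0.46) were the 11. The other 5 were ATP1 (-0.79), CYC1 (-0.73), RIP1 (-0.52), CYT1 (-0.46) and QCR7 (-0.43). After loess the means of these 5 were -0.81, -0.60, -0.42, -0.31 and -0.42. The sign of 7 means was opposite with median centring to that after loess. QCR8 (-0.14), COX5A (-0.24), COX13 (-0.17) and ATP4 (-0.34) were then below 0, and COX8 (0.05), ATP14 (0.04) and ATP20 (0.04) above it.

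**Figure D4:**
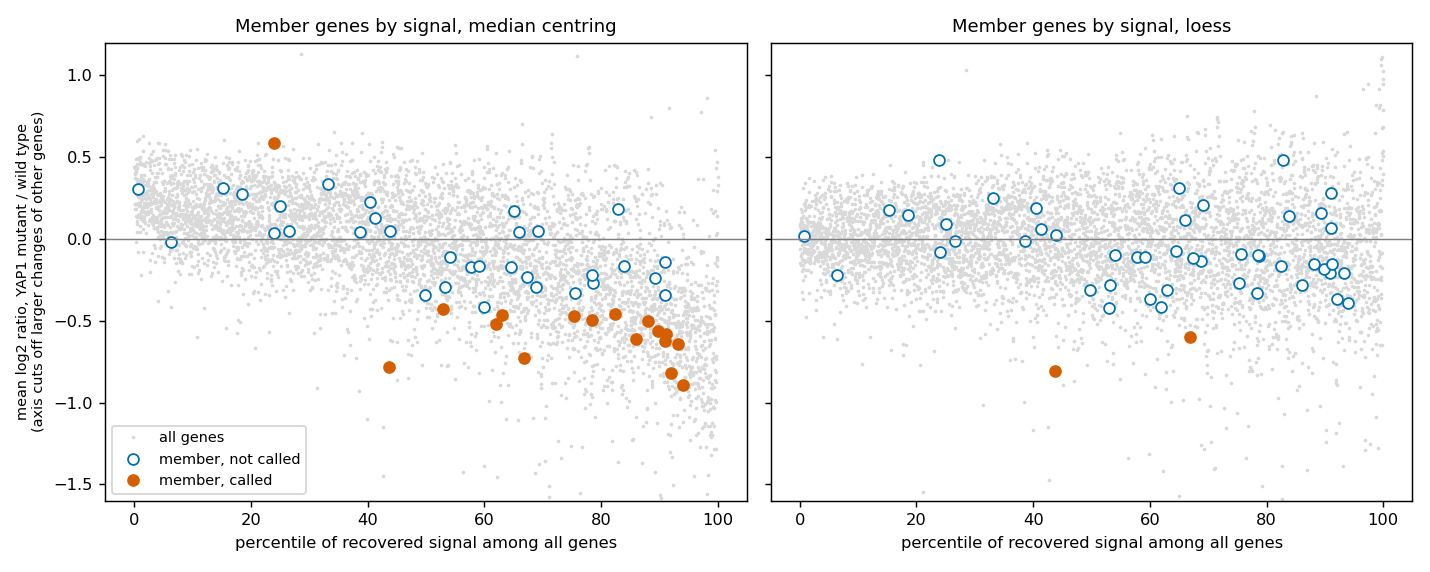
Mean log2 ratios of all genes (grey) and the 49 member genes (circles, filled where called at adjusted p < 0.05) are plotted against the percentile of recovered spot signal, with median centring on the left and loess on the right. With median centring the cloud of all genes bends below 0 at high signal and 17 members are called; after loess it is level and 2 members, ATP1 and CYC1, are called.

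The wider pathway was examined through lists of the enzymes, assembly factors, carriers and regulators around these complexes. Of 153 listed genes 135 were measured. After loess 6 were called lower and 0 higher, beside 3.74% and 0.939% of all genes, and with block medians 2 were lower, COX15 and FMP25. At an unadjusted p under 0.05, limma's fit after loess had 20 lower (14.8%, against 12% of all genes) and 7 higher (5.19%, against 7.55%). The median of the 135 was -0.03. No spot used here carried the name of any of the 8 mitochondrially encoded genes listed, so transcripts of mitochondrial DNA were not analysed here.

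COX15, which makes heme A for complex IV, had -1.29, -0.67 and -0.95, with a mean of -0.97 ± 0.16 (limma, adjusted p = 7.88e-04). It passed in each alternative setting run except where block medians were combined with leaving out replicate 2 or replicate 3. COX10, which acts in the preceding step of heme A synthesis, had 1.04, 0.14 and 0.14 and did not pass. COX11, a copper chaperone of complex IV, had the highest mean of the 135 (0.95, 0.34 and 0.10; mean 0.46). Of the 26 measured assembly genes of complex IV COX15 alone was called, and their median was 0.07. FMP25, needed for assembly of complex III, had -1.46, -0.46 and -0.79 (mean -0.90 ± 0.18, limma, adjusted p = 0.00456), the single call among 13 genes of that list. It passed with block medians (-0.85, adjusted p = 0.0408 by limma) but not with loess inside each block (-0.75, adjusted p = 0.0859), spots as technical replicates, the variance trend or replicate 1 left out. CYC3, the heme lyase of cytochrome c, had -0.64, -0.16 and -0.45 without passing.

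OAC1, the oxaloacetate carrier of the inner membrane, had the lowest mean of the 135, with -2.64, -1.69 and -0.38. The arrays disagreed widely, its duplicate spots differed by 0.64 and 0.57 on replicates 2 and 3, and the mean of -1.57 ± 0.27 passed after loess (limma, adjusted p = 0.00109) but not with block medians (adjusted p = 0.0858). The other 16 carriers did not pass. PDA1, a subunit of pyruvate dehydrogenase, which supplies acetyl-CoA to the cycle, had -0.70, -0.57 and -0.48 (mean -0.59, limma, adjusted p = 0.0276), and 5 of the 6 genes of its list were below 0 on all 3 arrays after loess and with block medians, beside 23.9% and 25.7% of all genes. LPD1, the subunit that this enzyme shares with 2-oxoglutarate dehydrogenase, had -0.69, -0.27 and -0.29 without passing. With block medians PDA1 had -0.37, -0.38 and -0.40 and did not pass (limma, adjusted p = 0.109). With loess inside each block it had -0.005, -0.05 and 0.01 (mean -0.01, adjusted p = 0.927 by limma). In that setting LAT1, LPD1 and KGD4 had means of -0.11, -0.09 and -0.01 and were not below 0 on every array. PDB1 was, with -0.21, -0.39 and -0.41.

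COQ1, the first enzyme of the ubiquinone side chain, had -0.88, -0.30 and -0.68 (mean -0.62, limma, adjusted p = 0.0276), the 1 call among 10 genes of coenzyme Q synthesis. ROX1, a heme-dependent repressor of hypoxic genes, had -0.99, -0.10 and -0.80 (mean -0.63, limma, adjusted p = 0.0450), the 1 call among 15 regulators, and both lost their call with block medians. The lists of isozymes and the glyoxylate cycle, other electron donors, complex II assembly, ATP synthase assembly and heme synthesis had 0 calls among 14, 8, 4, 14 and 8 measured genes. Of the 8 heme synthesis genes 5 were below 0 on all 3 arrays, beside 23.9% of all genes, and 4 of 8 with block medians, beside 25.7%. Their means after loess ran from -0.28 (HEM15) to 0.25 (HEM4).

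**Figure D5:**
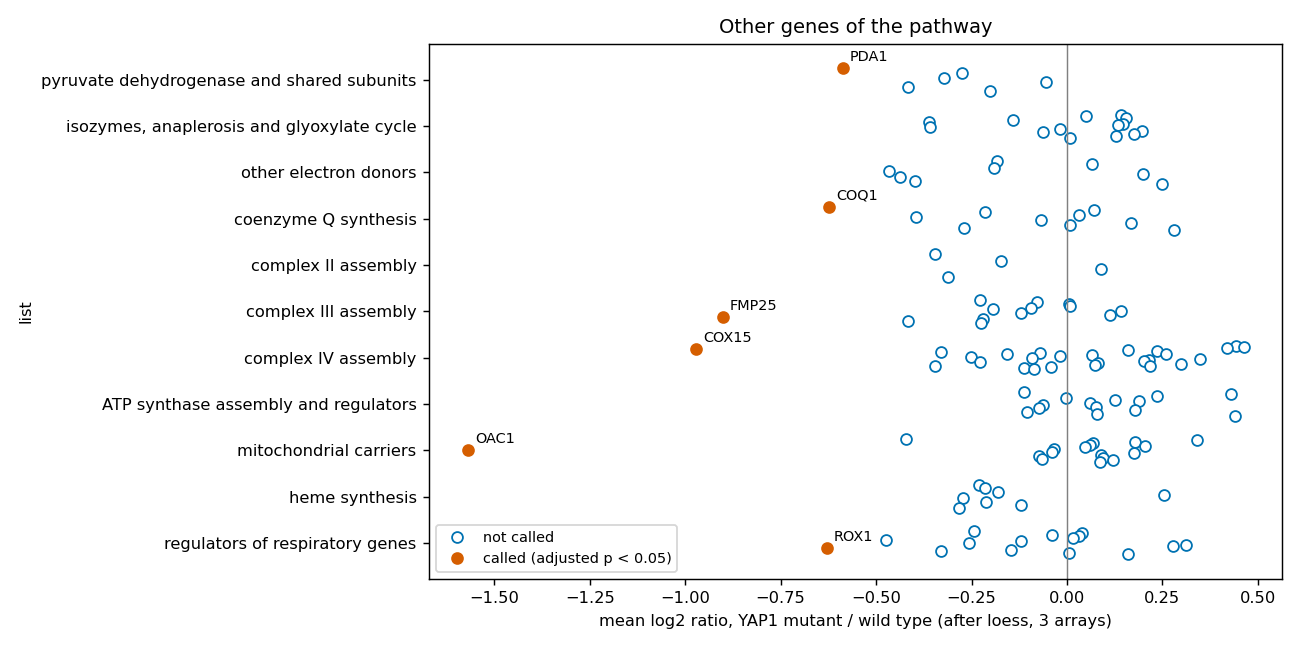
Mean log2 ratios after loess over 3 arrays are plotted for the 135 other genes of the pathway, 1 row of points per list, with called genes filled and named. The 6 called genes, OAC1, COX15, FMP25, ROX1, COQ1 and PDA1, all lie below -0.58, and 0 genes are called on the other side.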

How the data were processed

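Total RNA of arsenite-stressed mutant and wild type was hybridised on 3 two-colour arrays, per the labels. Each deposited value is the log2 ratio of a spot, and the scale was found from the values: all 13056 ratios of each array are ratios of whole numbers when read to base 2. The sources used here do not name the scanner, the background correction or any normalization by the authors. The deposited medians were -0.52, -0.85 and -0.55. Spot signals were recovered as the whole-number pair behind each ratio. In simulated arrays 91.0% to 94.2% of recovered signals lay within 0.5 log2 units of the simulated ones. The simulated signals were themselves drawn around those recovered from these data. The simulation therefore cannot show whether the real signals were recovered. A loess curve (span 0.3) of ratio on signal was subtracted per array, spots of a gene were averaged, and limma 3.58.1 in R 4.3.3 tested each mean against 0 over 5539 genes with Benjamini-Hochberg adjustment. Such scaling shows changes relative to most genes, not in total RNA. The fit was also run on simulated arrays of this comparison with 5539 genes, without print-block shifts. It called 20% of 50 genes changed 1.5-fold, 84% of those changed 2-fold and 98% of those changed 4-fold, with 0 false calls. The spread of a gene was drawn anew for each simulated array, and spot noise was added to spreads that already held it. These rates may therefore not hold for the real arrays.

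Spots were named from the platform annotation: 11138 had 1 gene symbol, 1918 none and 0 several, and 5534 of the 5539 genes matched the RefSeq gene table. The number of arrays limits the precision. Print blocks were inferred from the values after seeing the data, and the fits that use them are added alternatives. Other settings were median centring, the uncentred deposited scale, quantile and equal-spread scaling, another loess span, spots as technical replicates, a filter on dim genes, a variance trend, a stricter threshold and each array left out. Values per array were to be given for members called after loess or median centring, the lowest and highest member of each functional group, HAP4, 4 paralogue pairs and, of the pathway lists, called genes and the 2 lowest and 2 highest. The values of other members, of SHH3, SHH4, CYC3, LPD1, HAP2, HAP3, HAP5, HEM4 and HEM15, and of the genomic neighbours were added after being seen. The members and lists were chosen with earlier results of these data known.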

Additional observations from a re-analysis of the deposited data

How the results depend on the processing

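Each array held both strains, so the test of the ratio within an array against 0 was already a paired one. With 3 arrays of 1 dye orientation, neither dye nor culture can be separated from strain. The 2 genes called lower became 16 with median centring (10 without replicate 1, beside 11.5% of all genes), 42 on the uncentred deposited scale, beside 75.7% of all genes, 1 with equal-spread scaling, spots as replicates, a threshold of 0.01 or block medians, and 0 with a robust variance trend, loess within blocks or signal recovered per array alone; those settings called 1.25% to 2.96% of all genes lower. Leaving out 1 array gave 0 to 2 of the 49, beside 1.46% to 3.14% of all genes. With block medians as well it gave 0 to 1, beside 0.542% to 2.69%. Genes called higher numbered 1 with median centring and 2, ATP15 and HAP4, with quantile normalization, beside 2.15% of all genes. The 6 pathway genes called lower became 28 with median centring, beside 17.8% of all genes, and 17 without replicate 1 as well, beside 11.5%. They became 108 on the deposited scale, beside 75.7% of all genes. Equal-spread scaling, spots as replicates or 0.01 left 3, beside 2.96%, 2.78% and 1.91% of all genes. The variance trend, block medians or per-array recovery left 2, beside 1.43%, 1.95% and 1.44%. Loess within blocks left 1, beside 1.25%. Leaving out 1 array gave 1 to 5 pathway genes, beside 1.46% to 3.14% of all genes. With block medians as well it gave 0 to 2, beside 0.542% to 2.69%. With median centring 5 pathway genes were called higher, beside 4.28% of all genes. The median of the 49 was -0.23 with median centring (-0.19 without replicate 1), -0.87 on the deposited scale and 0.036 with loess within blocks. It ran from -0.15 to -0.086 with 1 array left out, and from -0.070 to -0.036 (-0.051 without replicate 3) with block medians as well. ATP1 did not pass in limma with the variance trend (-0.81, adjusted p = 0.0979), loess within blocks (-0.69, adjusted p = 0.134) or per-array recovery (-0.88, adjusted p = 0.0959). With 1 array left out it ran from -0.94 to -0.59. With block medians ATP1 had -0.73 without replicate 2 and -0.63 without replicate 3. Without replicate 1 the remaining values with block medians were weaker on replicate 2, at -0.47, and -0.66 on replicate 3. CYC1 did not pass with equal-spread scaling, spots as replicates or the variance trend either. On the deposited scale, where most genes are below 0, 17 means changed sign. Of these NDE1 (-0.59), QCR8 (-0.78), QCR10 (-0.41), COX5A (-0.88), COX6 (-0.59), COX7 (-0.44), COX12 (-0.60), COX13 (-0.81), ATP4 (-0.98) and ATP15 (-0.45) were called lower there; CIT1, LSC1, SDH2, QCR9, COX4, COX9 and HAP4 were not called. The causes were not tested.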
